A study of Mus musculus with 6 samples.

Results

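Expression of 10 genes of vessel-wall cells was followed in mouse tumours: 6 genes used as pericyte markers (Rgs5, Pdgfrb, Notch3, Kcnj8, Abcc9 and Des) and 4 genes of the smooth muscle contractile apparatus (Acta2, Tagln, Myh11 and Cnn1). The members were set by name out of 55291 gene symbols in the count table, and all 10 passed the low-count filter that left 18621 genes for testing. The tumours were grown under the skin from CT2A, an established mouse glioma line. The hosts were Siglece knockout mice (KO, 3 libraries) or wild-type mice (WT, 3 libraries), and no treatment, host strain, sex or age is given in the sources used here. Libraries were made by Smart-seq2, in which whole transcripts are copied to cDNA and the strand of the RNA is lost. The labels call the sampled material CT2A cells, give the source as brain beside the subcutaneous tissue, and name no sort or gate. How the Siglece allele was made is not given. Genes of host vessel, connective and immune cells were read in every library (values are given with the results), so the libraries did not hold tumour cell RNA alone.

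Pericytes sit on the outside of capillaries within the endothelial basement membrane, and vascular smooth muscle cells form the wall of larger vessels; together they are called mural cells. Endothelial cells recruit them by secreting platelet-derived growth factor B, which binds the receptor that Pdgfrb encodes, and Notch ligands on endothelium signal to Notch3 on the mural cell. Pericytes of capillaries usually carry little of the contractile proteins, whereas smooth muscle cells are rich in Acta2, Tagln, Myh11 and Cnn1. Several of these genes have other sources in a tumour: activated fibroblasts and some tumour cells make Acta2 and Tagln, fibroblasts make Pdgfrb, and skeletal muscle makes Des.

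Library totals ran from 24369359 to 40574093 counts. For Siglece, the deleted gene, the KO libraries gave 0, 8 and 0 counts in order of replicate and the WT libraries 74, 99 and 64. The log2 fold change was -4.66 (SE 1.15, edgeR adjusted p = 0.0409). Siglece passed the low-count filter through the WT libraries alone, and its loss is the genotype itself, so this call carries no weight. KO replicate 2 stood apart from the other KO libraries. The summed level of 8 neural and glial marker genes was 594.8 CPM there, against 71.3 and 47.2 CPM in KO replicates 1 and 3 and 843.6 to 876.5 CPM in WT. Levels are in CPM, counts scaled to a fixed library total on library sizes scaled by edgeR's TMM method. In bulk tumour RNA, fewer cells of a type and less RNA per cell cannot be told apart.

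Pericyte genes were higher in KO tumours. Of the 6 genes, 5 rose past the threshold of an adjusted p of 0.05 in edgeR's quasi-likelihood test and none fell. Of all tested genes, 11.2% were called higher and 0.226% lower, so a call alone was not rare. Every KO library exceeded every WT library for all 6 genes, which held for 24.6% of tested genes. The median log2 fold change of the 6 was 2.40, against -0.05 over all tested genes.

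Rgs5, a regulator of G protein signalling and among the most used pericyte markers, lies at chr1:169655501-169695813 on the plus strand (mm10). In order of replicate, the KO libraries held 136, 93.1 and 444.9 CPM of Rgs5 and the WT libraries 19.3, 31.9 and 31.8 CPM. The groups did not overlap, and KO replicate 3 alone held a level several times that of the other KO libraries. Rgs5 rose by 3.02 on the log2 scale (SE 0.62, edgeR adjusted p = 0.0272). The 250 bases before the RefSeq start of Rgs5 (GRCm38.p6, chr1:169655251-169655500, plus strand) are shown because Rgs5 rose most of the pericyte genes with all libraries (without KO replicate 3 its 2.03 lay below Pdgfrb, Notch3 and Abcc9, at 2.56, 2.33 and 2.14). They held none of the motifs searched and so carry no capitals.
Rgs5: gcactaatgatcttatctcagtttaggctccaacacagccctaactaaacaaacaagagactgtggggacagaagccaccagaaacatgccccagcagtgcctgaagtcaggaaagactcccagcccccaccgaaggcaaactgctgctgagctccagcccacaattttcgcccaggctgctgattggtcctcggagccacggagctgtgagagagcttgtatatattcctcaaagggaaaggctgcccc

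Pdgfrb, the receptor by which pericytes are recruited, lies at chr18:61045150-61085061 on the plus strand. Levels, again by replicate, were 316, 143 and 153 CPM for KO and 35.7, 33.5 and 45.7 CPM for WT. Here KO replicate 1 was highest, not KO replicate 3, and the lowest KO library was 3.13 times the highest WT library. Pdgfrb rose by 2.41 on the log2 scale (SE 0.39, adjusted p = 0.0246).

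Notch3, the Notch receptor of mural cells, lies at chr17:32120820-32166852 on the minus strand. The KO libraries held 45.4, 30.8 and 76.2 CPM of Notch3 and the WT libraries 2.27, 10.2 and 10.1 CPM. WT replicate 1 stood well below the other WT libraries, and the groups did not overlap. It rose by 2.75 on the log2 scale (SE 0.61, adjusted p = 0.0313). An antisense gene, Gm17276, shares 6.03% of the exon bases of Notch3, and reads of the pair cannot be told apart without strand.

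Kcnj8 and Abcc9 encode the pore (Kir6.1) and the regulatory subunit (SUR2) of the ATP-sensitive potassium channel of mural cells. They are neighbours on chromosome 6: Kcnj8 at chr6:142564837-142571614 and Abcc9 at chr6:142587862-142702315, both on the minus strand, with 16247 bases and no annotated gene between them. Abcc9 levels were 21.5, 17.1 and 29.4 CPM for KO and 2.05, 5.67 and 5.24 CPM for WT. It rose with a log2 fold change of 2.39 (SE 0.47, adjusted p = 0.0251), and its order over the libraries, with KO replicate 3 highest and WT replicate 1 lowest, was that of Notch3 at both ends.

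Kcnj8 levels were 10.001, 6.27 and 6.73 CPM for KO and 3.58, 2.42 and 3.04 CPM for WT. Its groups did not overlap either, but the log2 fold change of 1.35 (SE 0.40) missed the threshold at an adjusted p of 0.0666. It passed with DESeq2 (0.0103), once KO replicate 2 was left out of the edgeR fit (0.0223), and with quality weights in limma-voom (0.000669). The ratio of Abcc9 to Kcnj8 counts was 2.15, 2.73 and 4.36 in KO and 0.573, 2.34 and 1.73 in WT, and these ranges overlapped.

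The region before Abcc9 (chr6:142702316-142702524, minus strand, GRCm38.p6) is shown as the pericyte promoter in which motifs were found: 209 bases that end before the first exon of GENCODE M21. The capitals mark TGGGAA, the letters bound by the Notch partner RBPJ, which overlaps GGAATG, the reverse of the TEAD motif CATTCC.
Abcc9: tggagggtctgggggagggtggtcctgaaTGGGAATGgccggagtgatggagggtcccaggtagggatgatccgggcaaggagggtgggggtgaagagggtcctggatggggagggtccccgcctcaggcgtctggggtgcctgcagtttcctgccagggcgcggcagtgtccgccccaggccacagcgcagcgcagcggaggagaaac
Both strands were searched in the 250 bases before each RefSeq start. TGGGAA was in 21.6% and CATTCC in 12.6% of 32851 such windows, so either match is common. Of the 10 members, 7 had a window (Rgs5, Notch3, Kcnj8, Abcc9, Des, Acta2 and Cnn1; not Pdgfrb, Tagln or Myh11).

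Des, the muscle intermediate filament desmin, lies at chr1:75360329-75368579 on the plus strand. The KO libraries held 90.1, 40.9 and 159.6 CPM of Des and the WT libraries 32.7, 13.05 and 15.1 CPM, so that KO replicate 2 was only 1.25 times WT replicate 1. It rose with a log2 fold change of 2.25 (SE 0.56, adjusted p = 0.0422), the largest p of the 5 called, and missed the threshold with limma-voom (0.0563). Des is also a skeletal muscle gene, and 8 of 12 skeletal muscle markers were higher in KO. Their summed level, by replicate, was 1356.5, 411.7 and 2669 CPM for KO and 267, 133 and 121 CPM for WT, and 0 of the 12 were at 0 counts in every library. Des and this sum had the same highest library, the same lowest KO library and the same highest WT library; the part of muscle in the rise of Des was not tested.

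**Figure D1:**
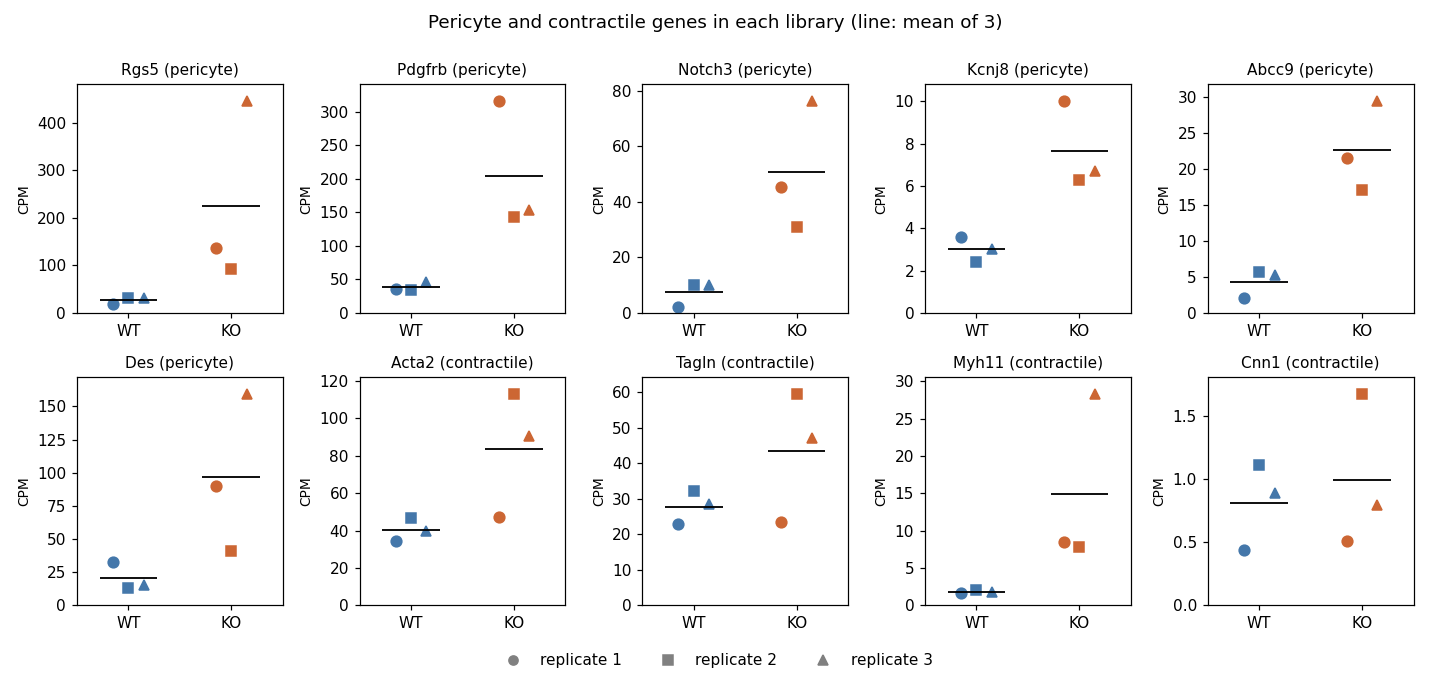
CPM of each of the 10 genes (y axes, from 0, each gene on its own scale) in the 3 WT and 3 KO libraries; symbols mark replicates and lines the mean. The KO points of the 6 pericyte genes and Myh11 lie above all WT points, those of Tagln and Cnn1 overlap WT, and KO replicate 2 is the highest library for Acta2, Tagln and Cnn1.

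The contractile genes did not move together. Of the 4, Myh11 rose past the threshold, and Acta2, Tagln and Cnn1 did not, with a median log2 fold change of 0.85 over the 4. Groups did not overlap for Myh11 and Acta2 and did for the other 2. Over all tested genes, 11.2% were called higher and 24.6% had every KO library above every WT library, so these counts over 4 genes carry little weight.

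Myh11, the smooth muscle myosin heavy chain and the most specific of the 4 for mature smooth muscle, lies at chr16:14194535-14291372 on the minus strand. The KO libraries held 8.54, 7.86 and 28.3 CPM of Myh11 and the WT libraries 1.61, 2.11 and 1.82 CPM. The WT libraries lay close together, and the lowest KO library was 3.73 times the highest of them, the widest gap between the groups among the 10 genes. It rose by 3.01 on the log2 scale (SE 0.59, adjusted p = 0.0254), close to Rgs5.

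Acta2, smooth muscle alpha actin, lies at chr19:34241090-34255590 on the minus strand. Levels were 47.2, 113 and 90.4 CPM for KO and 34.5, 46.9 and 40.0 CPM for WT. KO replicate 1 lay level with WT replicate 2 (a ratio of 1.01), and KO replicate 2 was highest. The log2 fold change of 1.05 (SE 0.35) did not pass (adjusted p = 0.0952), nor did it in any of 13 alternative fits (adjusted p from 0.0633 to 0.248).

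Tagln encodes transgelin (SM22), an actin-binding protein, and lies at chr9:45929619-45936058 on the minus strand. The KO libraries held 23.4, 59.5 and 47.2 CPM of Tagln and the WT libraries 22.8, 32.0 and 28.4 CPM, with KO replicate 1 inside the WT range. Its log2 fold change of 0.65 (SE 0.37, adjusted p = 0.249) did not pass, and quality weights in limma-voom turned it to -0.07. The antisense gene Gm48529 covers 62.4% of the exon bases of Tagln and Pcsk7 another 5.43%, so its counts are uncertain without strand.

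Cnn1, calponin 1, which restrains actomyosin in smooth muscle, lies at chr9:22099216-22109630 on the plus strand. It was scarce: the KO libraries gave 15, 59 and 16 counts (0.510, 1.68 and 0.798 CPM) and the WT libraries 16, 39 and 30 (0.437, 1.11 and 0.893 CPM). The ranges overlapped, with KO replicate 2 above all WT libraries and the other KO libraries inside their range. Its log2 fold change was 0.30 (SE 0.68, adjusted p = 0.776). This turned to -0.34 without KO replicate 2, to -0.014 without WT replicate 1 and to -0.66 with quality weights in limma-voom.

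Serum response factor drives contractile genes through the CArG box, a run of A and T between pairs of C and G. A strict CArG box was in 1.47% of windows and in 0 of the 7 member windows. With 1 C or G allowed in the core, 8.59% of windows held a match, and of the members only Acta2 did, at 84 to 75 and at 34 to 25 bases before the RefSeq start. These are shown in capitals, each within 30 bases (GRCm38.p6, minus strand, chr19:34255438-34255467 and chr19:34255388-34255417), because Acta2 is the most abundant contractile gene. GENCODE M21 places both stretches inside the first exon of a longer Acta2 transcript.
Acta2 distal: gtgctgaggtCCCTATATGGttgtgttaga
Acta2 proximal: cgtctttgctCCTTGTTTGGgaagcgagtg
The last match overlaps a TGGGAA, and a CATTCC in reverse lies at 146 to 141 bases before the start. A match is a match of letters only.

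**Figure D2:**
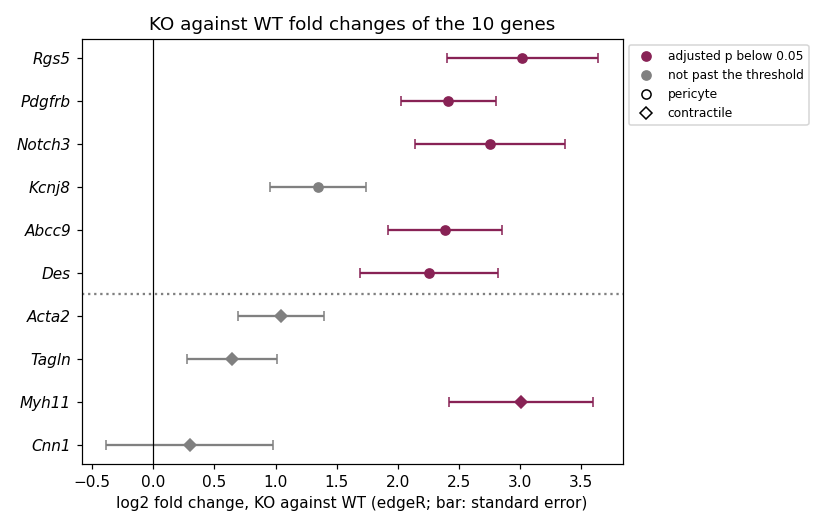
Log2 fold change of KO against WT for the 10 genes (x axis; edgeR, bars are the standard error), pericyte genes as circles above the dotted line and contractile genes as diamonds below. Rgs5, Pdgfrb, Notch3, Abcc9, Des and Myh11 (filled purple) passed the threshold; Kcnj8, Acta2, Tagln and Cnn1 (grey) did not.

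The calls depended on which libraries entered the fit. When KO replicate 1 or any single WT library was left out, edgeR called 0 of the 10 members and 0 genes in all. An unadjusted p under 0.05 was reached there by 7 to 9 members and by 3461 to 4931 of 19380 to 19694 tested genes. The log2 fold changes in those 4 fits were 1.90 to 2.54 for Pdgfrb, 2.79 to 3.21 for Rgs5 and 2.90 to 3.22 for Myh11. Without KO replicate 3 it called Rgs5, Pdgfrb and Myh11, with 4.85% of all genes called higher, and without KO replicate 2 all 6 pericyte genes and Myh11, with 22.7%. With all libraries, the pericyte genes called numbered 5 under RLE scaling (9.66% of all genes called higher), no composition scaling (9.19%), no low-count filter (8.71%) and a stricter filter (13.8%). They numbered 6 with DESeq2 (17.6%) and with limma-voom and its quality weights (29.7%), and 4 with limma-voom alone (5.31%).

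Per kilobase of exon, the order of mean levels differed between the groups. In WT tumours Acta2 (18.4 ± 2.83 RPKM, the TMM-scaled CPM per kilobase of exon, SD, n = 3) and Tagln (13.95 ± 2.35 RPKM) led. Their ranges overlapped across libraries, while Acta2 was above Tagln within each WT library (15.7 against 11.5, 21.4 against 16.1 and 18.2 against 14.3 RPKM). They lay above Pdgfrb (6.99 ± 1.19 RPKM), Rgs5 (6.09 ± 1.59 RPKM) and Des (5.41 ± 2.88 RPKM), whose ranges overlapped. In KO tumours the means of Rgs5 (49.4 ± 42.2 RPKM), Acta2 (38.1 ± 15.3 RPKM), Pdgfrb (37.3 ± 17.7 RPKM), Des (25.8 ± 15.9 RPKM) and Tagln (21.8 ± 9.22 RPKM) followed in this order, and each overlapped the next. No single KO library had that order. Pdgfrb led in KO replicate 1 (57.7 RPKM), Acta2 in KO replicate 2 (51.6 RPKM) and Rgs5 in KO replicate 3 (97.9 RPKM). For these genes KO replicate 2 kept the order of the WT means. Notch3, Kcnj8 and Abcc9 were lower in either group, at 0.516 to 1.18 RPKM in WT and 2.71 to 6.29 RPKM in KO. Myh11 was the scarcest of the 10 in WT (0.243 ± 0.0328 RPKM), its range overlapping that of Cnn1 (0.297 ± 0.126 RPKM). In KO it reached 1.96 ± 1.53 RPKM, above Cnn1 (0.364 ± 0.223 RPKM) with no overlap.

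Set side by side in each library, pericyte genes gained more than contractile genes. The mean log2 CPM of the 6 pericyte genes lay 2.45, 1.72 and 2.80 above the WT mean in KO replicates 1, 2 and 3. That of the 4 contractile genes lay 0.415, 1.44 and 1.48 above it. The difference, contractile minus pericyte, was -2.75, -1.002 and -2.04 in KO and -0.76, -0.52 and -0.89 in WT, and its group means differed by -1.21. The KO libraries all lay below the WT libraries, KO replicate 2 only narrowly. The members were chosen with results known, so no test is attached. Without KO replicate 1 the difference was -0.80, and without Myh11, an alternative chosen after its values were seen, -1.75.

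As a ratio of summed RPKM, contractile to pericyte transcripts stood at 0.280, 1.26 and 0.375 in KO replicates 1, 2 and 3. It was 1.29, 1.96 and 1.47 in the WT replicates. KO replicate 2 was thus just below the lowest WT library, while the other KO libraries held far more pericyte than contractile transcript. The pericyte sum was 124, 65.8 and 184 RPKM in KO and 21.4, 19.5 and 22.4 RPKM in WT. The contractile sum was 34.6, 83.1 and 68.9 RPKM in KO and 27.6, 38.2 and 33.1 RPKM in WT, and those ranges overlapped.

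**Figure D3:**
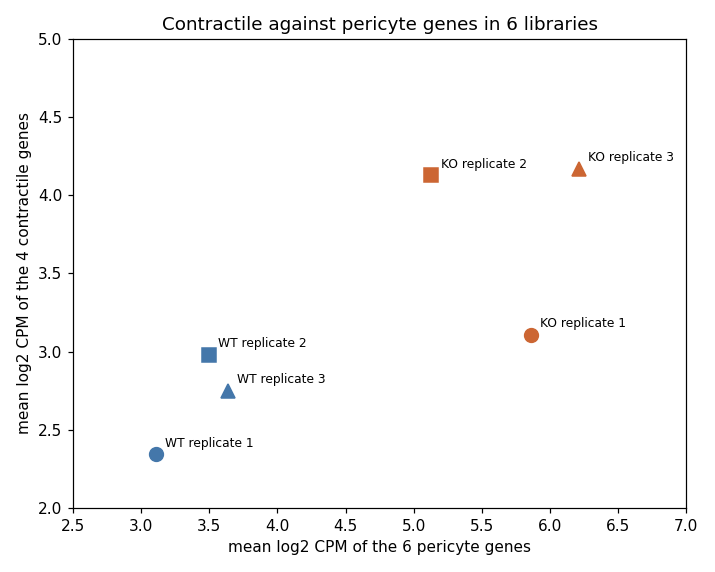
Mean log2 CPM of the 4 contractile genes (y axis) against that of the 6 pericyte genes (x axis), 1 point per library, WT blue and KO orange. The WT libraries lie together at the lower left; KO replicate 1 has moved along the pericyte axis with a gain of 0.415 on the contractile axis, and KO replicates 2 and 3 have moved on both.

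Ratios between members within a library do not depend on how libraries are scaled, and they divided the 4 contractile genes. Of all 45 pairs, Acta2 to Tagln had the most constant count ratio, at 2.01, 1.90 and 1.92 in KO and 1.52, 1.46 and 1.41 in WT. It spanned 0.513 on the log2 scale over the 6 libraries, and within that narrow span the groups were apart. Tagln counts are uncertain without strand (Gm48529 covers 62.4% of its exon bases), and so is this ratio. The next most constant was Rgs5 to Myh11, at 15.9, 11.8 and 15.7 in KO and 12.0, 15.1 and 17.5 in WT, a span of 0.565 with overlapping groups. Between the group means, Rgs5 differed 8.12-fold and Myh11 8.08-fold. KO replicate 3 carried much of both: without it the log2 fold changes were 2.03 and 2.13, against 3.02 and 3.01 with it. Acta2 to Myh11 was 5.53, 14.4 and 3.19 in KO and 21.4, 22.3 and 22.0 in WT, and the groups were far apart. These pairs were picked out after their values were seen.

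Over the pairs, 12 of the 24 ratios of a pericyte to a contractile gene were higher in every KO library than in every WT library, and 0 were lower in every KO library. The 12 were those of Rgs5, Pdgfrb, Notch3 and Abcc9 to Acta2, Tagln and Cnn1. These pericyte genes had log2 fold changes of 2.39 or more and these contractile genes of 1.05 or less, so the count in part restates them. The share over ratios of all gene pairs was not computed. Among single tested genes, 24.6% had every KO library above every WT library. Of the 15 ratios within the pericyte genes 12 overlapped, and the 3 that did not were Rgs5, Pdgfrb and Notch3 over Kcnj8. Pairs share genes and libraries and are not independent.

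Other mural genes, from a list of 22, followed the pericyte members in part. Of 21 tested, 11 rose, 0 fell and 10 did not pass, with a median log2 fold change of 2.04. Of all tested genes, 11.2% were called higher. Among those not passed, named after their values were seen, Higd1b (1.98, SE 0.67) and Ndufa4l2 (2.43, SE 0.77) had groups that did not overlap. Groups did overlap for Cox4i2 (1.47, SE 0.72), Heyl (0.32, SE 0.47) and Itga7 (0.12, SE 0.28). Ednra, the endothelin A receptor, averaged 22.9 ± 6.53 CPM over the KO and 4.79 ± 0.404 CPM over the WT libraries (SD, n = 3). Ebf1, a transcription factor of mural cells and fibroblasts, averaged 20.9 ± 11.2 and 2.69 ± 0.681 CPM. Steap4, a metalloreductase, rose by 4.55 on the log2 scale (SE 0.69) and Anpep, aminopeptidase N, by 3.79 (SE 0.67); the adjusted p of each of the 4 was 0.0246. The surface markers Cspg4 (NG2) and Mcam, singled out after their values were seen, did not pass, at log2 fold changes of -0.96 (SE 0.52) and -0.77 (SE 0.43). Cspg4 was far lower in KO replicates 1 and 3 (14.4 and 17.5 CPM) than elsewhere. KO replicate 2 held 58.3 CPM and the WT libraries 55.6 to 62.4 CPM. KO replicate 2 was also the KO library whose neural and glial markers lay nearest to WT. Leaving this library out, edgeR called 2 genes of the mural list lower, and 3629 of 19592 tested genes in all. Quality weights in limma-voom likewise gave 2 lower, and 4749 of 18621 in all. Of the tested mural genes, only Cspg4 and Mcam had a negative change in the main edgeR fit. The part of tumour cells in the level of Cspg4 was not tested.

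Of the 20 other smooth muscle genes, 18 were tested, 4 rose and 0 fell, with a median log2 fold change of 1.16. Beside this count and the next stands the 11.2% of all tested genes called higher. The 4 were Mylk, myosin light chain kinase (73.5 ± 29.4 CPM over KO and 9.92 ± 4.97 CPM over WT), Myl9, a regulatory light chain (27.5 ± 8.96 and 9.26 ± 1.02 CPM), Synpo2 (log2 fold change 2.29, SE 0.42) and Mrvi1 (1.86, SE 0.42). Myocd, the cofactor that sets the smooth muscle programme, was below the filter at 0 to 2 counts per library, as was Pln at 0 to 5. Of 16 actin genes and genes of the SRF and MRTF regulators, 4 rose: Fhl2 (2.47, SE 0.40), the cofactors Mrtfa (1.32, SE 0.32) and Mrtfb (1.52, SE 0.37), and Actn1 (1.16, SE 0.30). In this list a CArG box with 1 C or G allowed was in 7 of 14 windows, and of the 4 risen genes it was in those of Fhl2 and Mrtfa.

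Genes of PDGF, Notch and angiopoietin signalling were higher in part, where 11.2% of all tested genes were called higher. Of the PDGF ligands and the alpha receptor, 4 of 5 rose: Pdgfb, the ligand of Pdgfrb (71.8 ± 24.1 CPM over KO and 13.2 ± 1.89 CPM over WT), Pdgfc (log2 fold change 3.03, SE 0.54), Pdgfd (2.03, SE 0.45) and Pdgfra (2.37, SE 0.57). Of 13 other Notch pathway genes 4 rose: the ligands Jag2 (17.6 ± 6.47 and 4.12 ± 0.388 CPM) and Dll1 (1.64, SE 0.43), the receptor Notch4 (1.72, SE 0.31) and the target Nrarp (1.93, SE 0.46). The other 9 did not pass. Named after their values were seen, these included the ligand Jag1 (0.28, SE 0.31). The targets Hes1 (0.81, SE 0.41), Hey1 (1.04, SE 0.40) and Hey2 (-0.41, SE 0.64) were also among them. Of the angiopoietin system, which ties pericytes to endothelium, the endothelial receptors Tek (3.60, SE 0.76) and Tie1 (2.98, SE 0.51) rose. The pericyte ligand Angpt1 did not pass (7.04 ± 2.61 and 7.43 ± 0.859 CPM), nor did Angpt2 (28.7 ± 3.87 and 15.1 ± 1.33 CPM, adjusted p = 0.0566).

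Of the remaining subunits of the potassium channel family, Kcnj11 gave 52, 12 and 16 counts for KO and 2, 1 and 1 for WT. It passed the low-count filter through the KO libraries alone, so its call by edgeR carries no weight, and it was not called with limma-voom. Abcc8 was below the filter with 3 counts in all. Of the other intermediate filament genes, 0 of 4 passed in edgeR with all libraries (0 at an unadjusted p under 0.05). For Vim and Nes every KO library lay below every WT library, which held for 19.5% of tested genes. Vim, which fibroblasts and glioma cells make, averaged 2089 ± 868.7 CPM over KO and 4250 ± 869.9 CPM over WT (adjusted p = 0.168), and Nes averaged 115 ± 144 and 333 ± 33.4 CPM (adjusted p = 0.227). The KO mean of Nes rested on KO replicate 2, at 280.5 CPM against 33.3 and 30.1 CPM in KO replicates 1 and 3. Without KO replicate 2, edgeR called 2 of the 4 lower; DESeq2 called 1 lower and quality weights 2.

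Markers of other stromal cells were higher in the same libraries. Over all tested genes, 11.2% were called higher and 0.226% lower. Of 12 endothelial markers 10 rose; their summed level was 558 to 1463 CPM in KO and 157 to 195 CPM in WT, lowest of the KO libraries in replicate 2 and highest in replicate 3. Of 12 fibroblast markers 10 rose, with a summed level of 14010 to 42183 CPM in KO and 2805 to 4348 CPM in WT. That sum was highest in KO replicate 1, and the mean log2 level over the 12 was highest in KO replicate 3 (3.35 above the WT mean, against 3.235 in KO replicate 1 and 1.72 in KO replicate 2). The median log2 fold changes, 2.92 for endothelial and 3.11 for fibroblast markers, were above the 2.40 of the pericyte genes, and a difference between the lists was not tested. None of the markers of either list was at 0 counts in all libraries. Of 10 macrophage markers 7 rose and of 8 T cell markers 7 rose. Of 8 neural and glial markers 2 fell; without KO replicate 2 the count was 7, with quality weights in limma-voom 8 and with no composition scaling 0. Of 5 cardiac markers 4 were tested and of 8 keratinocyte markers 3, and edgeR called 0 of either. Without KO replicate 2 it called 1 cardiac marker higher, and 1 keratinocyte marker higher and 1 lower; with no filter, 1 of each list was higher. Their sums were 7.05 to 16.1 CPM and 1.31 to 7.58 CPM, and 0 of them were at 0 counts in every library. Of 8 fat cell markers 7 were tested and 1, Fabp4, rose. It made up most of their summed level (810.2 of 913 CPM in KO replicate 3, 97.6 of 100.1 in KO replicate 1 and 38.7 of 51.2 in KO replicate 2; the sum was 11.7 to 33.4 CPM in WT). The mean log2 level of the list lay 4.35 above the WT mean in KO replicate 3, 1.36 above it in KO replicate 2 and at -0.23 in KO replicate 1. The part of these cells in the rise of the members was not tested.

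**Figure D4:**
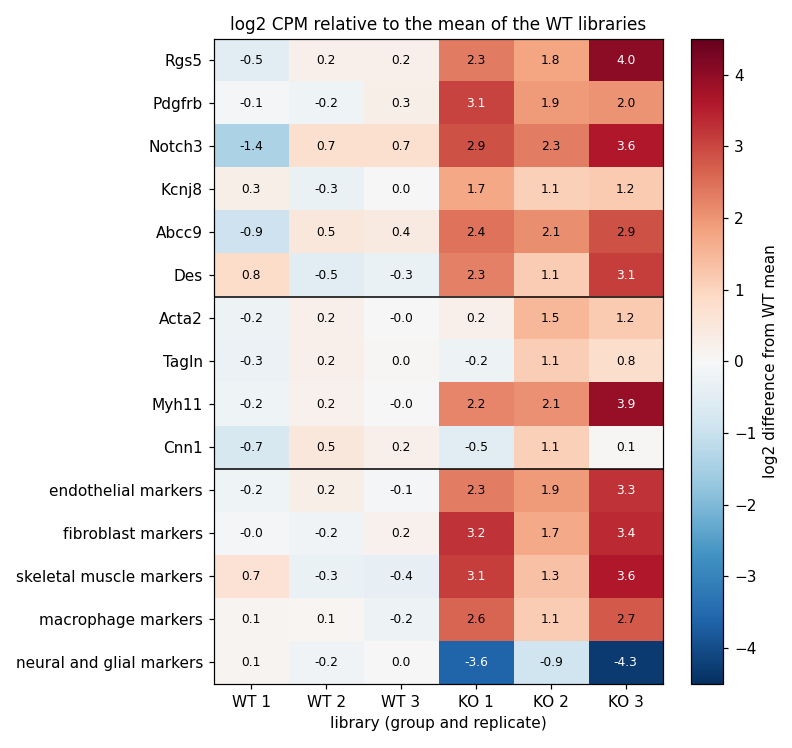
Log2 CPM in each library relative to the mean of the WT libraries (colour and printed value) for the 10 genes and, below the second line, the mean over 5 marker lists; columns are libraries. Rgs5, Notch3, Abcc9, Des and Myh11 are highest in KO replicate 3, as are the endothelial markers. Pdgfrb and Kcnj8 are highest in KO replicate 1, and Acta2, Tagln and Cnn1 in KO replicate 2.

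The genes whose pattern was most like the mean of the pericyte members, by Pearson's r of log2 CPM over the 6 libraries among 12663 genes, were Thbd, thrombomodulin of endothelium (r = 0.998), Cgnl1 (0.998), Tns1 (0.998), Pdgfb (0.997) and Ebf1 (0.996). Such likeness was common: 2175 genes (17.2%) reached an r of 0.9. For the contractile members 19 genes (0.15%) did, led by Dll4, a Notch ligand of endothelial tip cells (0.969), Apln, apelin (0.955), Clca2 (0.951), Prnd (0.943) and Prn (0.943). Prnd and Prn had the same CPM in each WT library, so their counts may be shared. Dll4 levels were 10.2, 15.9 and 22.1 CPM for KO and 3.36, 7.15 and 5.39 CPM for WT. The 6 libraries fall into the genotype groups, so these values describe likeness and carry no test.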

How the data were processed

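The authors deposited raw read counts per gene symbol with merged exon lengths, in the layout of featureCounts per the file headers. Per the submitters' processing notes, mm10 was the build and DESeq2 a tool; the aligner and strand setting were not given in the sources used here. All 10 members had the position of GENCODE M21 (same build). The 6 libraries were compared as KO (3) against WT (3) with edgeR 4.0.16 in R 4.3.3 (quasi-likelihood F test, two-sided, TMM, filterByExpr, Benjamini-Hochberg adjustment over 18621 genes, threshold 0.05); the tested genes held 99.9% of counts. SE is the absolute log2 fold change over the square root of F. Log2 CPM used a prior count of 2. RPKM used the deposited lengths. Alternatives used limma 3.58.1 and DESeq2 1.42.0.

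Replicate numbers follow accession order. Nothing says that libraries came from separate animals, so p-values measure only how these samples spread, which may be technical. Column serial numbers run in separate ranges for the groups, and genotype and any order of processing cannot be told apart. No pair of libraries agreed within sampling noise. The smallest chi-square per degree of freedom was 7.66, between WT replicates 2 and 3. By this measure KO replicate 2 lay nearer to WT replicates 1, 2 and 3 (207, 67.6 and 71.0) than to KO replicates 1 and 3 (221 and 313). Reads carried no molecular identifiers; 3 counts stood for 0.0820 to 0.150 CPM.

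The members and the companion lists (8 pathway and 9 marker lists) were chosen with earlier results of these data known. All members were named, with up to 4 genes of smallest p per pathway list and the 5 genes most like each member group (mean log2 CPM of at least 1, predicted models left out). RefSeq start-site windows (GRCm38.p6) supplied the sequences.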

Additional observations from a re-analysis of the deposited data

How the results depend on the processing

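No paired analysis was possible because the labels give no replicate numbers. With all 6 libraries, 5 of the 6 pericyte genes were called higher under RLE scaling, no composition scaling, no low-count filter and a stricter filter (at least 50 counts), 6 with DESeq2 and with quality weights in limma-voom, and 4 with limma-voom; of the contractile genes 1, Myh11, was called in each. Leaving out 1 library in turn gave 0 to 6 pericyte genes, 0 to 1 contractile genes, 0 to 43 companion genes higher (30 with all libraries) and 0 to 5 lower, and 0 to 4449 genes higher and 0 to 3629 lower in all. In the 4 of these fits with 0 edgeR calls, 36 to 43 companion genes had an unadjusted p under 0.05. Of all 19380 to 19694 genes tested there, 3461 to 4931 did. Companion genes called higher numbered 18 with limma-voom and 49 with quality weights, and those called lower 1 with DESeq2 and 7 with quality weights. Over all genes, 2083 were called higher and 42 lower; the counts were 3266 and 1244 with DESeq2, 5531 and 4749 with quality weights, 988 higher with limma-voom, 24 lower with no composition scaling and 476 lower with no filter. The cause of these shifts was not tested. The log2 fold change of Tagln turned to -0.0705 and that of Cnn1 to -0.66 with quality weights. Leaving out libraries in turn moved Cnn1 between -0.34 (without KO replicate 2) and 0.576 (without KO replicate 1), with -0.014 without WT replicate 1; the cause was not tested, and no value of Cnn1 was near the threshold. Contractile minus pericyte stayed between -1.75 and -0.80 over 14 alternatives. Cnn1, at 15 to 59 counts, was the member most limited by depth.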
